A study of Mus musculus with 6 samples.

Results

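The genes described here are the 10 listed lysosomal proteases of antigen processing, the cathepsins Ctsa, Ctsb, Ctsc, Ctsd, Ctse, Ctsh, Ctsl, Ctss and Ctsz and the asparaginyl endopeptidase gene Lgmn, taken by symbol from the tables of all 6 libraries. All 10 of these symbols were found, once each, among 30733 gene symbols. The libraries came from bone marrow of wild-type mice (genotype WT) given 5 Gy of total body irradiation. The cells carry the label of hematopoietic stem cells (HSC), which renew the blood, and were sorted by surface MHC class II into MHCII-hi (3 libraries) and MHCII-lo (3 libraries). Both groups were irradiated, unirradiated cells were not analysed here, and the age of the mice, the gates and the interval between irradiation and sorting are not stated in the labels. Values are FPKM (fragments per kilobase of exon and per unit of library depth) and are written as mean ± SD with n = 3 libraries per group. The labels do not say whether the replicates came from separate mice. The p-values therefore measure the spread between libraries, which may be technical. For some members it was no wider than the estimated spread from counting fragments alone.

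Class II molecules are loaded with peptide in acidic endosomes and lysosomes, where proteases degrade both the antigen and the invariant chain (Cd74) that blocks the groove until loading. The papain-like cysteine proteases Ctss and Ctsl are known for the late cuts of the invariant chain, Ctss in B cells and dendritic cells and Ctsl in cortical epithelium of the thymus. The other members are lysosomal endopeptidases or trim peptide ends, and most are also part of general protein turnover in myeloid cells. In bulk RNA a lower value can mean fewer cells of a type that carries the transcript or less of it per cell, and these cannot be told apart.

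The members did not move as a group with the sort. Of the 10 genes, 3 were higher in MHCII-hi (Lgmn, Ctsh and Ctse), 4 were lower (Ctsc, Ctsl, Ctsz and Ctsd) and 3 did not pass the test (Ctss, Ctsb and Ctsa). A gene was counted at a Benjamini-Hochberg adjusted p under 0.05 in limma, fitted to log2(FPKM + 1) of the 12110 genes whose mean over the libraries reached 1 FPKM. All 10 members reached that minimum in both groups. The 7 genes called compare with 58.6% of all tested genes called, 25.5% higher and 33.1% lower, so the share called is near the background. For 8 of the 10 members the libraries of one group all lay on one side of the other, as for 65.8% of all tested genes. The median log2 change, MHCII-hi minus MHCII-lo, was -0.02 over the members and -0.04 over all tested genes.

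**Figure D1:**
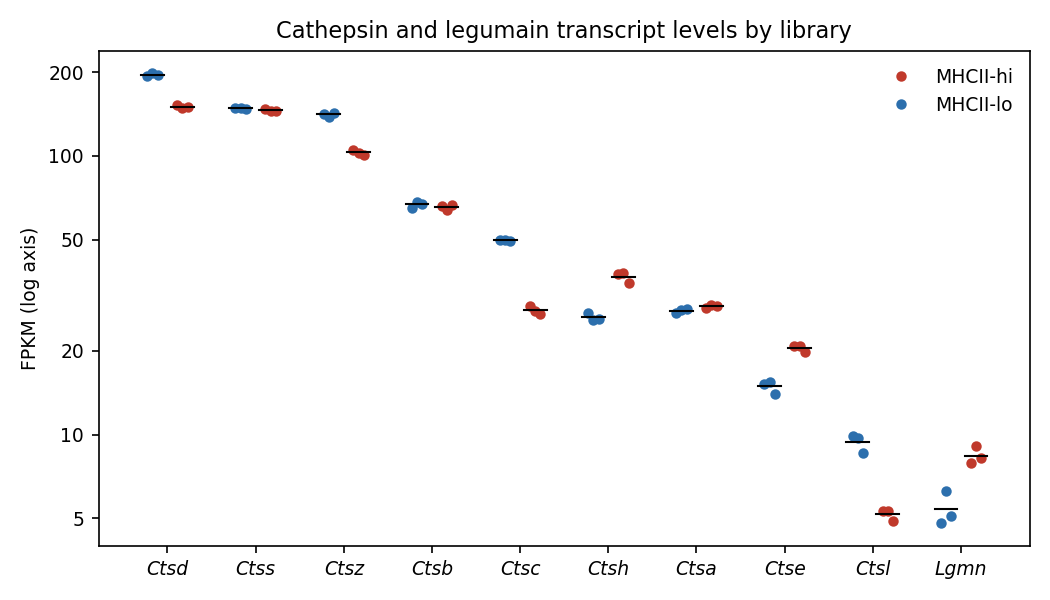
FPKM of each member gene (log axis) in the 3 MHCII-lo libraries (blue) and the 3 MHCII-hi libraries (red), with the group mean as a black line. Ctsd, Ctss and Ctsz are the most abundant in both groups, and the groups stand apart for every gene except Ctss and Ctsb, although Ctsa did not pass the test.

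Levels spanned more than an order of magnitude, and FPKM is per length, so they can be ranked. In MHCII-lo libraries Ctsd was highest at 196 ± 2.19 FPKM, followed by Ctss at 148 ± 0.804, Ctsz at 141 ± 2.41, Ctsb at 66.9 ± 1.77 and Ctsc at 49.8 ± 0.251. Then came Ctsa at 27.8 ± 0.505 and Ctsh at 26.4 ± 0.889 FPKM, whose libraries overlapped, Ctse at 14.9 ± 0.767, Ctsl at 9.40 ± 0.704 and Lgmn at 5.41 ± 0.781. The order changed in the lower part of the range in MHCII-hi libraries. There Ctsh, at 36.9 ± 1.54 FPKM, stood above Ctsa at 28.9 ± 0.416 and Ctsc at 28.0 ± 0.936, which overlapped each other, and Lgmn, at 8.40 ± 0.630, stood above Ctsl at 5.17 ± 0.237. At the top, Ctsd at 150.2 ± 1.66 FPKM and Ctss at 146 ± 1.72 FPKM lay close together in MHCII-hi without overlapping.

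Promoter windows of the RefSeq table (build GRCm38.p6), each from 250 bases before to 50 bases after an annotated start, were found for 7 of the 10 members, 9 windows in all. Ctsb, Ctse and Ctsh had no entry. They were searched on both strands for CACGTG, the palindromic core recognised by the lysosomal gene regulators TFEB and TFE3, and for TCACGTGA, its longer palindrome, so every match of the second is also a match of the first. An interferon response type of element (GAAA, any 2 bases, GAAA), TTCNNNGAA (the STAT type) and AGGAAGT (the ETS type) were searched as well. CACGTG stood in a window of 4 of the 7 members (Ctsa, Ctsd, Ctsl and Lgmn), in 4 of 9 windows, against 7.15% of all 32851 windows. TCACGTGA stood in windows of Ctsa and Ctsd, against 0.974% of all windows. Ctsa and Lgmn have 2 windows each. In both genes the window that contains the annotated gene start held no match of any kind, and the matches lie in the window of a downstream start. The Ctsl window also belongs to a downstream start and does not contain the annotated gene start. These 4 genes differed in how they moved between the groups, since Ctsd and Ctsl were lower in MHCII-hi, Lgmn was higher and Ctsa did not pass. The interferon response type was found only in the Ctss window (3.44% of all windows), TTCNNNGAA only in that of Ctsc (8.30%), and AGGAAGT in those of Ctss and Ctsc (9.35%). The windows below are examples. Ctsd and Ctsa hold the long palindrome, Ctsl holds the short one and Ctss holds 2 of the other kinds. Lgmn also holds the short one and Ctsc also holds 2 of the other kinds, and their windows are not shown. Capitals mark the matches, and a match is a description of the letters only.
Ctsd promoter, chr7:142387778-142388077, minus strand: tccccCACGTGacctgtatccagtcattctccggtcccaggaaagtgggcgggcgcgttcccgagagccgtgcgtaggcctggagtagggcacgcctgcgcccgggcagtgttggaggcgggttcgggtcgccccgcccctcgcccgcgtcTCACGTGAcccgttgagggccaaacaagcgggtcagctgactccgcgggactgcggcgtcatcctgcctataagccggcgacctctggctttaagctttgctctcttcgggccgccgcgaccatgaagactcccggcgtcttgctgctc
Ctsa promoter, chr2:164833523-164833822, plus strand: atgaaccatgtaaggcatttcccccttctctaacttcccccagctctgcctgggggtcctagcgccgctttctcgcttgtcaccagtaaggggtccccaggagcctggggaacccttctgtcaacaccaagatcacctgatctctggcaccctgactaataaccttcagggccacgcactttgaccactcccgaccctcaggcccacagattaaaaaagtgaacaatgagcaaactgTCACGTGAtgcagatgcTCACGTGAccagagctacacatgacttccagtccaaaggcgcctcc
Ctsl promoter, chr13:64370471-64370770, minus strand: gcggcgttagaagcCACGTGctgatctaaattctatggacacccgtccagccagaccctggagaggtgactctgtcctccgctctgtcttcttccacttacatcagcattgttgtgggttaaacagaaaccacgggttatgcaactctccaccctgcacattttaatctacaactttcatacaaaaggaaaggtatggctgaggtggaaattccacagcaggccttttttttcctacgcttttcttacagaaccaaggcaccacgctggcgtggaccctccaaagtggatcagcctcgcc
Ctss promoter, chr3:95526536-95526835, plus strand: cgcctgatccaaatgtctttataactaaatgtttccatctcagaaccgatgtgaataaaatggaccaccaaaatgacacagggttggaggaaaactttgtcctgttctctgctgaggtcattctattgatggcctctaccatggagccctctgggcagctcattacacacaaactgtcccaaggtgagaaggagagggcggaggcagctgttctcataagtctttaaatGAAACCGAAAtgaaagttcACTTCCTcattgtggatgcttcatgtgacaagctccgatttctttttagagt
In the Ctsd window the long palindrome begins 99 bases before the start and a further CACGTG begins 245 bases before it. The annotated gene start of Ctsd, at 142388038, lies between these 2 matches. The Ctsa window shown, that of its downstream start, holds TCACGTGA beginning 13 bases before and again beginning 4 bases after that start. In the Ctsl window CACGTG begins 236 bases before the start to which that window belongs. The annotated gene start of Ctsl, at 64370890, lies further upstream, so the match lies within the annotated gene. The interferon response type of element begins 21 bases before the start of Ctss, and AGGAAGT, on the opposite strand, 2 bases before it.

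The invariant chain proteases Ctss and Ctsl differed from each other. Ctss (ENSMUSG00000038642.10, GRCm38 chromosome 3, 95526786 to 95556403, plus strand) measured 148, 145 and 145 FPKM in MHCII-hi, against 148, 149 and 147 FPKM in MHCII-lo. The groups overlapped, and the log2 change was -0.02 (SE 0.018, 95% interval -0.07 to 0.02, limma adjusted p = 0.36). Ctsl (ENSMUSG00000021477.9, chromosome 13, 64359337 to 64370890, minus strand) stood at 5.31, 5.31 and 4.90 FPKM in MHCII-hi, compared with 9.86, 9.75 and 8.59 FPKM in MHCII-lo. Every MHCII-hi library lay below every MHCII-lo library, at a 1.82-fold lower mean (log2 change -0.75, SE 0.062, limma adjusted p = 7.29e-05). The ratio of Ctss to Ctsl, which does not change when a whole library is multiplied by 1 factor, came to 28.2 ± 1.17 in MHCII-hi against 15.8 ± 1.15 in MHCII-lo. Its two-sided exact permutation p was 0.1, the smallest that 3 libraries against 3 can give (0.106 after Benjamini-Hochberg adjustment over the 18 sums, shares and ratios computed here).

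Legumain, which cuts after asparagine and also processes cathepsins to their mature forms, was the least abundant member in MHCII-lo and had the largest rise among the 10. Lgmn (ENSMUSG00000021190.14, chromosome 12, 102394084 to 102439813, minus strand) stood at 7.88, 9.10 and 8.22 FPKM in MHCII-hi, compared with 4.81, 6.29 and 5.12 FPKM in MHCII-lo. The groups did not overlap, and the MHCII-hi mean was 1.55-fold higher (log2 change 0.56, SE 0.094, limma adjusted p = 0.00225). It was also the least precise member, with a coefficient of variation of 14.4% in MHCII-lo and 7.50% in MHCII-hi. An estimated 198 fragments lay behind its lowest library, for which counting alone gives 7.11%. Some other members varied by less than counting gives in the library with the fewest estimated fragments. In MHCII-hi, Ctss, Ctsd, Ctsa and Ctsl varied by 1.18%, 1.10%, 1.44% and 4.58%, against 1.57%, 1.24%, 2.14% and 6.82% from counting. Ctsb, Ctsc and Ctsz varied by more in MHCII-hi, at 1.98%, 3.35% and 2.01%, against 1.26%, 2.65% and 1.81%. In MHCII-lo Ctsb, Ctsc and Ctsz varied by 2.65%, 0.504% and 1.71%, and Ctss by 0.543%. Ctsc and Ctss had fewer than 6491 estimated fragments per library there, a number for which counting gives 1.24%. Both therefore varied by less than counting gives in MHCII-lo.

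The exopeptidases of the papain family moved apart. Ctsh (ENSMUSG00000032359.14, chromosome 9, 90054152 to 90076089, plus strand), mainly an aminopeptidase that trims one residue at a time, stood at 37.6, 37.9 and 35.1 FPKM in MHCII-hi, compared with 27.4, 25.9 and 25.9 FPKM in MHCII-lo. It was higher in every MHCII-hi library, 1.40-fold by the means (log2 change 0.47, SE 0.041, limma adjusted p = 9.74e-05). Ctsc (ENSMUSG00000030560.17, chromosome 7, 88278085 to 88310888, plus strand), the dipeptidyl peptidase that activates the serine proteases of neutrophil granules and cytotoxic cells, stood at 29.0, 27.8 and 27.1 FPKM in MHCII-hi, compared with 49.9, 50.1 and 49.6 FPKM in MHCII-lo. Its fall was the largest of the members on the log2(FPKM + 1) scale, though by the ratio of means Ctsl, at 1.82-fold, fell slightly more. Ctsc was lower with every MHCII-hi library below every MHCII-lo library, a 1.78-fold lower mean (log2 change -0.81, SE 0.031, limma adjusted p = 1.71e-06). The ratio of Ctsh to Ctsc came to 1.32 ± 0.0389 in MHCII-hi against 0.530 ± 0.0175 in MHCII-lo (two-sided exact permutation p = 0.1). The carboxypeptidase Ctsz (ENSMUSG00000016256.10, chromosome 2, 174427493 to 174439039, minus strand) stood at 105, 103 and 101 FPKM in MHCII-hi, compared with 142, 138 and 143 FPKM in MHCII-lo. It was 1.37-fold lower in MHCII-hi, with no overlap (log2 change -0.45, SE 0.024, limma adjusted p = 9.68e-06).

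Ctsb (ENSMUSG00000021939.8, chromosome 14, 63122462 to 63145923, plus strand), an endopeptidase that can also remove dipeptides from the carboxyl end, stood at 66.3, 64.2 and 66.6 FPKM in MHCII-hi, compared with 65.0, 68.4 and 67.4 FPKM in MHCII-lo. The groups overlapped and the test was not passed (log2 change -0.03, 95% interval -0.10 to 0.04, limma adjusted p = 0.459).

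The aspartic proteases also moved apart. Ctsd (ENSMUSG00000007891.16, chromosome 7, 142375911 to 142388038, minus strand), the main aspartic protease of lysosomes, stood at 152, 149 and 150.1 FPKM in MHCII-hi, compared with 194, 198 and 195 FPKM in MHCII-lo. It was 1.30-fold lower in MHCII-hi, without overlap (log2 change -0.38, SE 0.019, limma adjusted p = 6.74e-06). Ctse (ENSMUSG00000004552.16, chromosome 1, 131638306 to 131675505, plus strand), an aspartic protease of endosomes, stood at 20.7, 20.7 and 19.8 FPKM in MHCII-hi, compared with 15.2, 15.5 and 14.0 FPKM in MHCII-lo. It was 1.37-fold higher in MHCII-hi, again without overlap (log2 change 0.43, SE 0.045, limma adjusted p = 0.00022). The ratio of Ctsd to Ctse came to 7.36 ± 0.211 in MHCII-hi against 13.2 ± 0.671 in MHCII-lo (two-sided exact permutation p = 0.1).

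Ctsa (ENSMUSG00000017760.16, chromosome 2, 164832873 to 164841032, plus strand), a serine carboxypeptidase that also protects the lysosomal enzymes beta-galactosidase and neuraminidase from degradation, stood at 28.4, 29.3 and 28.9 FPKM in MHCII-hi, compared with 27.3, 28.0 and 28.3 FPKM in MHCII-lo. The lowest MHCII-hi library lay just above the highest MHCII-lo library, and the test was not passed (log2 change 0.05, 95% interval -0.02 to 0.12, limma adjusted p = 0.156).

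**Figure D2:**
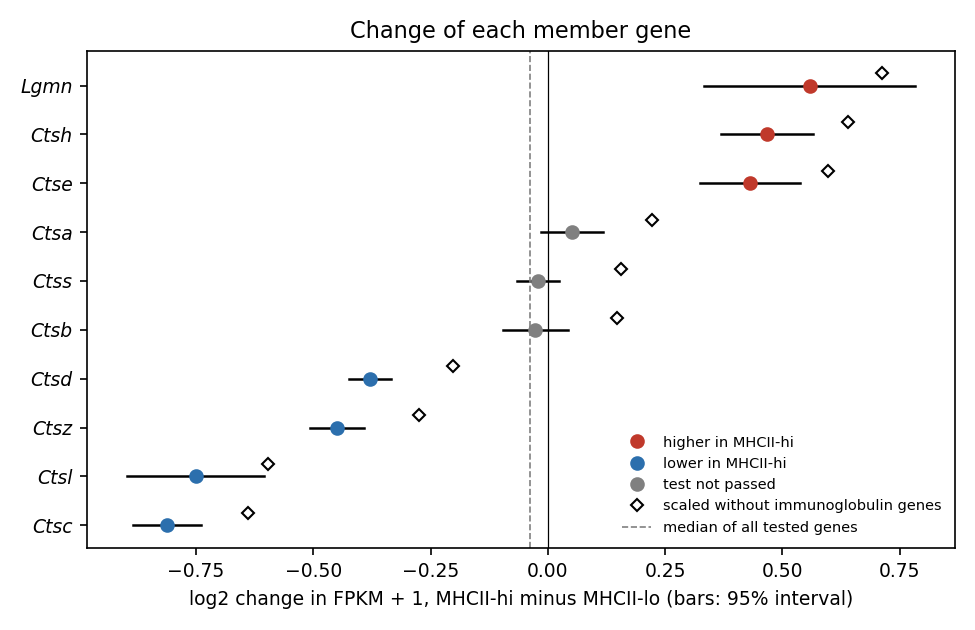
Log2 change in FPKM + 1 (MHCII-hi minus MHCII-lo) of each member with its 95% interval in limma, coloured red where higher, blue where lower and grey where the test was not passed. Open diamonds give the change after rescaling by FPKM sums that leave out immunoglobulin genes, which places Ctsa, Ctss and Ctsb above 0 and leaves the direction of the other 7.

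The calls of the 7 members that passed kept their direction and passed under every scaling and other setting tried, while those of Ctss, Ctsb and Ctsa depended on scaling. An FPKM value depends on what else fills the library, and immunoglobulin genes took between 23.4% and 23.7% of summed FPKM in MHCII-hi and between 0.493% and 0.502% in MHCII-lo. Weighted by exon length, which is nearer to a share of fragments, they took between 5.53% and 5.57% in MHCII-hi and between 0.104% and 0.106% in MHCII-lo. When the libraries were rescaled by their FPKM sums with immunoglobulin genes left out, the median over all genes shifted by 0.15 on the log2 scale. The share of called genes that were higher went from 43.5% to 69.9% with it. Rescaling by FPKM times exon length without immunoglobulin genes shifted the median by 0.08, and 56.7% of called genes were then higher. Under the first of these Ctss, Ctsb and Ctsa passed as higher in MHCII-hi, with log2 changes of 0.16, 0.15 and 0.22 (limma adjusted p = 0.000448, 0.0046 and 0.00055). Under the second, Ctss and Ctsa passed as higher, at 0.07 and 0.14 (limma adjusted p = 0.0163 and 0.00526), and Ctsb did not pass. Quantile normalization placed Ctss and Ctsb lower, at -0.37 and -0.16, and Ctsa higher, at 0.09 (limma adjusted p = 8.69e-06, 0.00263 and 0.0409). The size of the falls of Ctsd and Ctsz moved as well. The log2 change of Ctsd was -0.72 under quantile normalization and -0.20 when scaled by FPKM sums without immunoglobulin genes. That of Ctsz was -0.74 and -0.27 under the same settings.

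Shares within the 10 genes likewise do not change with such a factor. The summed FPKM of the members was 600.0, 590.5 and 587 in MHCII-hi and 683, 689 and 684 in MHCII-lo, 1.16-fold lower in MHCII-hi without overlap (two-sided exact permutation p = 0.1). The difference of -92.9 FPKM became -14.5 FPKM when libraries were scaled by FPKM sums without immunoglobulin genes, -53.2 when scaled by FPKM times exon length without them and -206 under quantile normalization. The papain family members together held 64.9% ± 0.244 of the sum in MHCII-hi and 64.4% ± 0.353 in MHCII-lo, which overlapped (two-sided exact permutation p = 0.2). Within it some shares rose and others fell. A share can rise because the sum is lower, without a rise of the gene itself. Ctss went from 21.6% ± 0.0976 in MHCII-lo to 24.6% ± 0.0702 in MHCII-hi and Ctsh from 3.85% ± 0.142 to 6.23% ± 0.220. Ctsb went from 9.77% ± 0.223 to 11.1% ± 0.247. In FPKM neither Ctss nor Ctsb passed the test (limma adjusted p = 0.36 and 0.459). Ctsz went from 20.6% ± 0.434 to 17.4% ± 0.149 and Ctsc from 7.27% ± 0.0322 to 4.72% ± 0.103. Among the others, Ctsd held 28.6% ± 0.197 in MHCII-lo and 25.4% ± 0.216 in MHCII-hi, Ctse 2.17% ± 0.108 and 3.45% ± 0.0688, and Lgmn 0.789% ± 0.110 and 1.42% ± 0.115. Each of the 10 single-gene shares had libraries that did not overlap between the groups, each with a two-sided exact permutation p = 0.1 (0.106 adjusted over the 18 quantities).

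**Figure D3:**
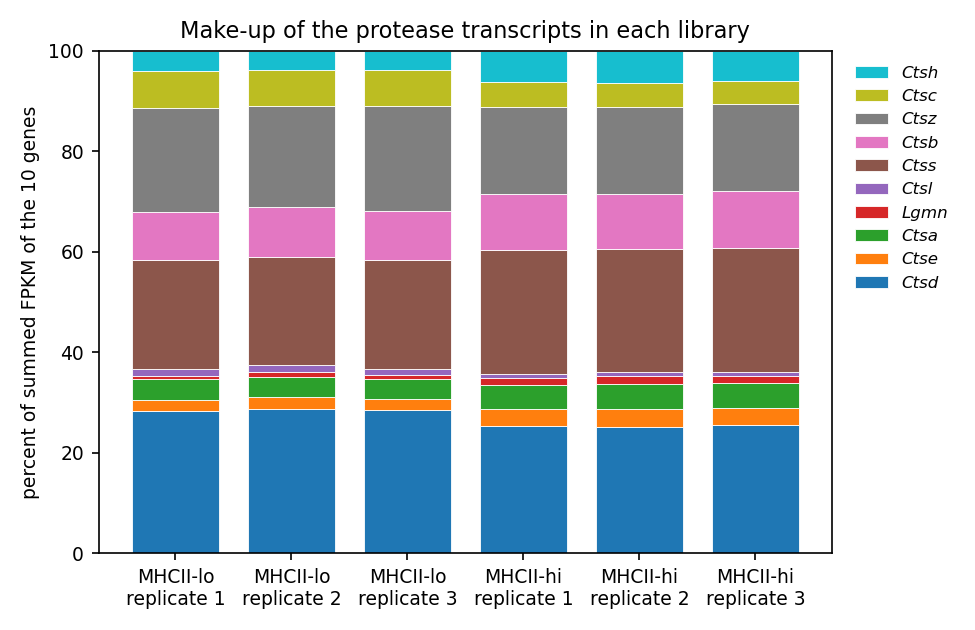
Percent of the summed FPKM of the 10 genes held by each, one bar per library, 3 MHCII-lo and 3 MHCII-hi. The bars of a group are nearly alike. Between groups the segments of Ctss, Ctsh, Ctsb, Ctse, Ctsa and Lgmn are wider in MHCII-hi and those of Ctsd, Ctsz, Ctsc and Ctsl narrower.

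The sequences of the members were separable from one another. No 31-base stretch of a GENCODE M21 transcript of one member occurred in another member. Stretches shared with any other gene made up 33.2% of the distinct 31-base stretches of Ctsd and 28.2% of those of Ctsl, and 14.6% of those of Ctsa. Ctsd overlaps the gene model Gm49369 on the same strand, so how its reads were split is uncertain. Ctsl overlaps the antisense model Gm47123 and the pseudogene Gm49230, the latter listed at 0 in all 6 libraries. Ctss and Ctsz shared none, although Ctss overlaps the same-strand pseudogene Hmgb1-ps5, listed at 0.81 to 2.44 FPKM. Of the opposite-strand neighbours with a row in the files, the highest was Nelfcd at Ctsz, at no more than 13.7 FPKM, and the strand setting of the counting is not stated.

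Markers of other cell types moved with the groups beside all of these changes. All 10 neutrophil markers were lower in MHCII-hi, with a summed level of 15415 to 15810 FPKM against 37396 to 38085 in MHCII-lo. Of 8 monocyte markers 7 were lower and 1 was higher (2425 to 2492 FPKM against 3558 to 3573). All 8 eosinophil markers (6898 to 7043 FPKM against 2602 to 2640) and 9 of 10 plasma cell markers (1535 to 1547 FPKM against 97.6 to 103 FPKM) were higher. The same held for 5 of 8 basophil and mast cell markers, while 1 did not pass and 2 lay below the minimum (948 to 961 FPKM against 519 to 539 FPKM, with Tpsb2 at 0 in all libraries). Of 10 conventional dendritic cell markers 6 were higher and 4 lay below the minimum (49.3 to 51.4 FPKM against 10.9 to 11.0 FPKM, with Fscn1 at 0 in every MHCII-lo library). In the B cell list 3 of 10 markers were higher and 7 lay below the minimum (53.2 to 56.9 FPKM against 7.41 to 8.77), and Ms4a1 and Pax5 were at 0 in at least one MHCII-lo library. Of 10 T and NK markers 7 were higher, 1 did not pass and 2 lay below the minimum (191 to 199 FPKM against 161 to 169.5 FPKM). The marker that did not pass, Nkg7, made up most of both sums, at 148 ± 3.42 against 150 ± 3.99 FPKM. The sums therefore understate the rise of the other T and NK markers. Of 12 resident macrophage markers 4 were higher, 1 was lower and 7 lay below the minimum (51.1 to 53.5 FPKM against 41.8 to 42.0 FPKM, with Cd5l at 0 in every MHCII-lo library). Of 8 plasmacytoid dendritic cell markers 3 were higher, 1 was lower and 4 lay below the minimum (45.9 to 54.1 FPKM against no more than 36.5 FPKM). The HSC label was checked with 10 markers, of which Mecom, Fgd5, Procr, Slamf1 and Hoxb5 lay below 1 FPKM on average and 4 were higher in MHCII-hi (55.7 to 61.3 FPKM in all against 19.1 to 19.7). Ly6a made up most of that difference, at 35.5 ± 2.74 against 2.50 ± 0.193 FPKM, and the other 9 summed to 22.0 to 22.8 FPKM against 16.7 to 17.01 FPKM. The part of these cell types in the changes of the cathepsin genes was not tested.

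The other genes of the pathway were read from lists, against the background of 58.6% called. Among cathepsins outside the 10, the cytotoxic lymphocyte protease Ctsw stood at 9.14 ± 0.588 against 1.66 ± 0.176 FPKM, MHCII-hi against MHCII-lo, and the osteoclast collagenase Ctsk at 11.5 ± 0.575 against 3.75 ± 0.632 FPKM. Ctso was higher too, at 3.61 ± 0.207 against 2.25 ± 0.289 FPKM, and Ctsf, at 0.35 ± 0.0557 against 0.297 ± 0.0208 FPKM, lay below the minimum. The proteases known to be activated by Ctsc split, with Ctsg, Prtn3 and Elane of neutrophil granules lower in MHCII-hi and the granzymes Gzma and Gzmb higher. Ctsg stood at 666 ± 11.2 against 1446 ± 32.2 FPKM, and Gzmb at 15.1 ± 1.08 against 5.89 ± 0.603 FPKM. The sixth gene of that list, Cma1, stayed below the minimum.

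Inhibitors of cysteine cathepsins were mostly lower in MHCII-hi, with 9 of 11 tested genes lower and 2 higher (median log2 change -2.85). Of these 9, 7 are stefin A type genes of a cluster of close copies, among which reads may be split, such as Stfa3 at 3.41 ± 0.236 against 103 ± 3.34 FPKM. The secreted inhibitor Cst3 had the highest level of the list in both groups and was higher in MHCII-hi, at 183 ± 3.04 against 163 ± 4.66 FPKM. The other higher gene was the serpin Serpina3g, at 24.4 ± 1.98 against 13.5 ± 1.07 FPKM. Under quantile normalization Cst3 was called lower (log2 change -0.20, limma adjusted p = 0.000345), which left 1 gene of the list higher and 10 lower. Cst3 and Serpina3g were named after their values were seen.

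Genes of class II chains and loading were higher in 10 of 12 tested cases and lower in 2 (median log2 change 1.21). Because the cells were sorted by surface class II, the rise of the class II chains in this list is not independent of the sort. Whether the sort sets the direction of the other genes of the list was not tested. The chaperone H2-DMa, which removes the remnant of the invariant chain after the cathepsins have cut it, stood at 16.5 ± 0.576 against 7.07 ± 0.221 FPKM. The lysosomal thiol reductase Ifi30 and the protease Sppl2a, which cuts the last membrane stub of the invariant chain, were the 2 lower genes, at 95.8 ± 5.11 against 110.2 ± 3.92 FPKM and at a 1.16-fold lower mean. Ifi30 and Sppl2a were not called lower when scaled by FPKM sums without immunoglobulin genes (log2 changes -0.02 and -0.04, limma adjusted p = 0.669 and 0.426). When scaled by FPKM times exon length without those genes, Sppl2a was called lower and Ifi30 was not (limma adjusted p = 0.0714). H2-DMa, Ifi30 and Sppl2a were named after their values were seen.

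The wider lysosome did not follow 1 direction. Of 34 genes listed as acid hydrolases, 14 were higher, 9 were lower and 11 did not pass (median log2 change 0.07). The list includes Psap, Gm2a and Npc2, which are not hydrolases themselves and were all among the higher genes. Scaled by FPKM sums without immunoglobulin genes, 20 of the list were higher and 1 was lower. When scaled by FPKM times exon length without them, 15 were higher and 3 were lower. Under quantile normalization 12 were higher and 11 lower. Scpep1, a serine carboxypeptidase related to Ctsa, stood at 28.3 ± 1.11 against 16.5 ± 0.521 FPKM and the alpha-galactosidase Gla at 31.6 ± 0.293 against 15.0 ± 1.12 FPKM. Psap, the precursor of the saposins and a substrate of Ctsd, stood at 548 ± 9.82 against 417 ± 3.97 FPKM, but was lower in MHCII-hi under quantile normalization (log2 change -0.10). Of 15 lysosomal membrane genes 6 were higher and 4 lower (9 and 1 when scaled by FPKM sums without immunoglobulin genes, 8 and 3 by FPKM times exon length without them, and 3 and 5 under quantile normalization). Lamp2 was 1.82-fold lower in MHCII-hi, at 30.0 ± 0.721 against 54.7 ± 0.552 FPKM.

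Subunits of the vacuolar proton pump, which acidifies the compartment so that cathepsins can work, were lower in 13 of 16 cases and higher in 1 (median log2 change -0.29). Scaled by FPKM sums without immunoglobulin genes, 9 were lower and 3 higher, and by FPKM times exon length without them, 10 were lower and 1 higher. The catalytic subunit Atp6v1a stood at 21.0 ± 0.339 against 34.1 ± 0.977 FPKM. Of 9 genes that sort enzymes to lysosomes 4 were lower and 2 higher, and 2 were lower and 5 higher when scaled by FPKM sums without immunoglobulin genes. By FPKM times exon length without them, 3 were lower and 3 higher. Of the transcription factors that bind CACGTG in lysosomal promoters, Tfec was lower, at 9.10 ± 0.551 against 13.3 ± 0.175 FPKM. Tfeb, at 3.50 ± 0.0577 against 4.03 ± 0.312 FPKM (limma adjusted p = 0.0548), Tfe3 and Mitf did not pass. Under quantile normalization Tfeb and Tfe3 were called lower too (limma adjusted p = 0.00831 and 0.017), and Tfeb was also called lower without MHCII-lo replicate 1 (limma adjusted p = 0.0195) and without the trend (limma adjusted p = 0.0416).

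**Figure D4:**
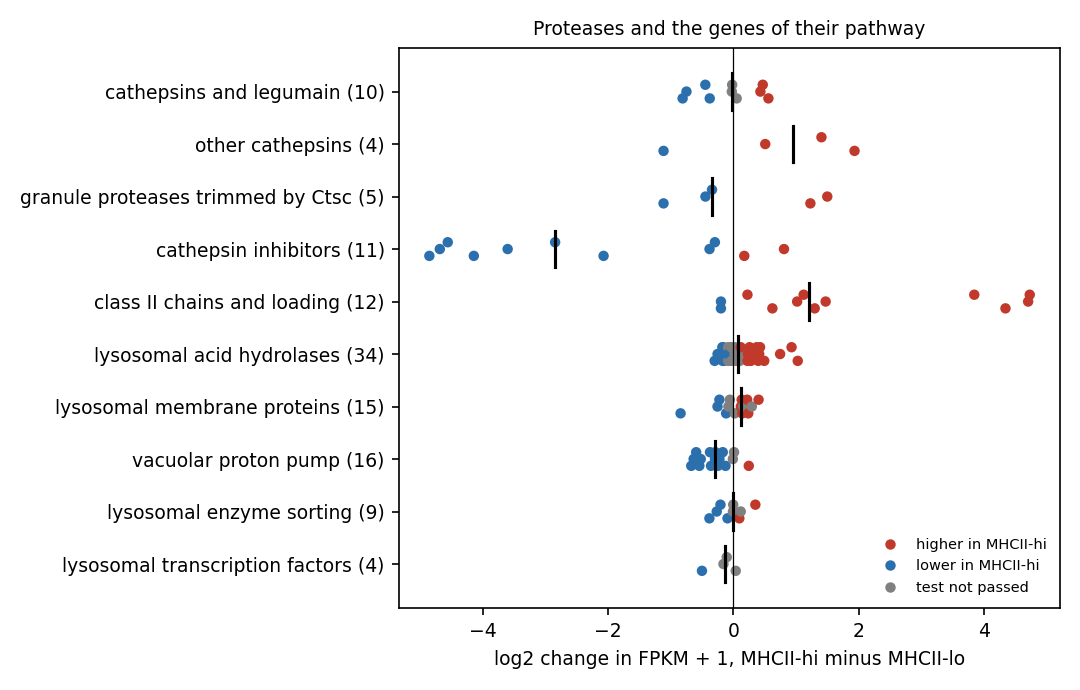
Log2 change in FPKM + 1 (MHCII-hi minus MHCII-lo) of each tested gene, by list, with the number tested in brackets and the list's median as a black bar. Red points were higher, blue points lower and grey points did not pass, and the 10 proteases lie on both sides of 0 while most inhibitors and proton pump subunits lie below it.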

How the data were processed

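Libraries were prepared with a TruSeq Stranded mRNA kit, per the labels' protocols. fastp, HISAT2, StringTie and the builds GRCm38 and mm10 are named in the submitters' processing notes, without versions or settings. The authors deposited 1 table per library, and its values were taken as FPKM because they are fractional and sum to between 332290 and 383600 per library. Of 30803 rows, 70 were dropped because the symbol recurred with a higher mean. The change between groups was estimated by limma 3.58.1 (R 4.3.3) from log2(FPKM + 1), with a trend in the moderation, over 12110 genes, and p-values were adjusted over all of them. This scale understates changes of low genes. Sums, shares and ratios were compared by two-sided exact permutation tests. The fit was tested on simulated data. Recovery was required there only of changes larger than those of the called members, so it does not vouch for changes of their size.

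Depth is not stated by the authors. It was estimated from the smallest step of FPKM in 4877 single-exon genes, sought within a fixed window, as 20500000 to 32400000 fragments per library. A wider window, tried first, gave a lower multiple in some libraries, so the estimate is rough. Gene coordinates are from GENCODE M21 (GRCm38), and promoters from RefSeq (GRCm38.p6). The members and lists were chosen with earlier results of these data known. All members are named, and of each other list up to 3 genes with the smallest p, or the whole of a list of 6 or fewer, besides those marked as chosen after their values were seen. Alternatives were the pseudocount, the minimum, scaling, moderation, a replicate block and leaving out each library. Scaling to FPKM times exon length without immunoglobulin genes was chosen after seeing the data.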

Additional observations from a re-analysis of the deposited data

How the results depend on the processing

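The number of members called was 7 and their split 3 higher and 4 lower with a pseudocount of 0.1, no minimum or a minimum of 5 FPKM, upper-quartile scaling, limma without trend or with robust moderation, and without each library in turn. With the replicate number as a block it was also 7, and the number of all genes called was 6638. The labels do not say that a number pairs libraries. Deviations of same-numbered libraries from their group means had correlations of -0.092, -0.0036 and -0.035. With so few libraries per group these cannot exclude pairing. Scaling changed the calls of Ctss, Ctsb and Ctsa, and the size but not the calls of Ctsd and Ctsz. Scaled to summed FPKM without immunoglobulin genes, 6 members were higher, with Ctss at 0.16 and Ctsb at 0.15 in log2 change, reversed from -0.02 and -0.03. Scaled to FPKM times exon length without immunoglobulin genes, 5 members were higher, with log2 changes of 0.068 for Ctss (limma adjusted p = 0.0163) and 0.062 for Ctsb (limma adjusted p = 0.089). The sum of the members stayed lower in MHCII-hi in all 10 alternatives run for it, with differences from -206 to -14.5 FPKM. Over all genes, 4934 were higher and 2127 lower when scaled to summed FPKM without immunoglobulin genes, against 3084 and 4009, and 1792 were higher with a minimum of 5 FPKM, which tests fewer genes. Log2 changes of other named genes reversed in 5 cases. Psap went to -0.10, Cst3 to -0.20 and Mitf to -0.12 under quantile normalization, Mitf to -0.11 without MHCII-lo replicate 2 (-0.11 to 0.11 over the libraries left out in turn), and Tfe3 to 0.033 when scaled to summed FPKM without immunoglobulin genes. Mitf and Tfe3 did not pass in the test as reported. The cause of the other changes was not tested. Depth limits Lgmn and Ctsl most, with at least 198 and 215 estimated fragments per library.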
